A study of Homo sapiens with 12 samples.

Results

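The 53 genes described here encode the machinery that licenses origins of DNA replication and copies DNA at the fork. They were taken by symbol from a table of 35337 genes, all 53 had a row, and all 53 passed the filter on low values (mean normalised read count of at least 5). Their transcripts were measured by CEL-seq2, which sequences polyadenylated RNA from its 3′ end, in EndoC-βH3 cells, a human beta-cell line derived from fetal pancreas. The line was made with hTERT, SV40 Large T-antigen and a CreER recombinase. The labels give their genotype as WT. The senescent group (6 libraries) was treated for 3 weeks with 4-hydroxy tamoxifen, which activates CreER to excise hTERT and Large T-antigen. The non-senescent group (6 libraries) was labelled as control and kept both transgenes. Drug treatment, loss of the transgenes and arrest therefore came together and cannot be told apart in these samples, which all come from 1 cell line. The study's methods describe 2 independent batches, and the letters in the sample titles were taken to mark them. A held 2 libraries of each group and B held 4 of each. Nothing says that the libraries within a batch came from separate cultures, so p-values measure the spread between these libraries, which may be technical.

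Depth was 8873569 to 17106776 reads per library in batch A and 4672924 to 7063264 in B, so genes with few reads had less counting error in batch A. The 8 beta-cell markers checked passed the filter, but they did not all move the same way. INS had 11021 to 34331 normalised read counts in non-senescent and 49685 to 185508 in senescent libraries. NEUROD1 went from 7023 to 8195 down to 6166 to 6667 in batch A and from 11810 to 13331 down to 10140 to 11377 in batch B. Markers of cell types that are not endocrine were low but not all absent. The 3 stroma markers summed to 6.4 to 123 normalised read counts in non-senescent and 9.7 to 46.9 in senescent libraries, with PDGFRB at 0 in all 12 and COL3A1 at up to 97.9 in the non-senescent libraries of batch B. The 3 immune markers summed to 19.9 to 51.1 and 13.5 to 40.9 (CD3E at 0, PTPRC and CD68 over the filter), and the 3 endothelial ones to 4.8 to 16.2 and 2.5 to 14.5 (VWF at 0, PECAM1 over the filter). Of the 3 acinar markers, 1 passed the filter: their summed level was 33.9 to 58.4 normalised read counts in non-senescent and 143 to 251 in senescent libraries, nearly all from CPA1, while PRSS1 and CELA3A were at or near 0. The 3 duct markers, of which 1 passed the filter, summed to 240.0 to 379 and 79.9 to 159.5, nearly all from KRT19. Other endocrine transcripts were present and lower in senescent libraries. SST had 159785 to 287479 normalised read counts in non-senescent and 114932 to 142626 in senescent libraries, without overlap. GCG went from 2463 to 2878 down to 507 to 528 in batch A and from 4548 to 5461 down to 2695 to 2985 in batch B. Mitochondrial transcripts took 15.6% to 20.2% of non-senescent and 17.2% to 24.8% of senescent reads. The part of these differences in the results below was not tested.

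Cells license each origin once per cycle. In G1 the origin recognition complex, with CDC6 and CDT1, loads the MCM2-7 ring onto DNA as an inactive helicase, and geminin then blocks CDT1 so that no origin is loaded again. In S phase the kinase CDC7 with DBF4 helps CDC45 and GINS join the ring, and polymerases, the sliding clamp PCNA, its loader RFC, ligase and histone chaperones follow the moving fork. Many of these genes are known targets of the E2F factors, which the RB family holds back in resting cells and which Large T-antigen sets free by binding RB. Beta cells of the adult pancreas rarely divide.

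E2F sites lie close to the start of many S-phase genes. The promoters are shown for 5 members that fell and hold an E2F word (MCM6, MCM7, PCNA, GMNN and CDT1). Those of 2 members that were not called and hold none (ORC2 and POLD2) are shown as well. They do not stand for their groups: CDC45, FEN1 and POLD1 fell and held no word in the window searched, and ORC3 held 1 and was not called. Each line gives the 250 bases before the RefSeq start (GRCh38.p14), 5′ to 3′ on the strand of the gene, with E2F words in capitals. The stretches are chr2:135876444-135876693 (minus strand) for MCM6, chr7:100101398-100101647 (minus) for MCM7, chr20:5126623-5126872 (minus) for PCNA, chr6:24775163-24775412 (plus) for GMNN, chr16:88803539-88803788 (plus) for CDT1, chr2:200963661-200963910 (minus) for ORC2 and chr7:44123549-44123798 (minus) for POLD2.
MCM6: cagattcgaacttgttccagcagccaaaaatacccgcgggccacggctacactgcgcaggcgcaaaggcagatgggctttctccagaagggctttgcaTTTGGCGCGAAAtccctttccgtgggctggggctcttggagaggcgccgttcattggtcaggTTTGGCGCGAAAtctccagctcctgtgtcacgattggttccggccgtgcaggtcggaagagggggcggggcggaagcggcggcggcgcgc
MCM7: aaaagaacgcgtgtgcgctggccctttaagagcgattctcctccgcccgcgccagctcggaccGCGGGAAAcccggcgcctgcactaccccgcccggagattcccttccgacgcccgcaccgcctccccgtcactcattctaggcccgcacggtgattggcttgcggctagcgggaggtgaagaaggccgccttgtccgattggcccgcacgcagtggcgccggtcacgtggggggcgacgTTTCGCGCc
PCNA: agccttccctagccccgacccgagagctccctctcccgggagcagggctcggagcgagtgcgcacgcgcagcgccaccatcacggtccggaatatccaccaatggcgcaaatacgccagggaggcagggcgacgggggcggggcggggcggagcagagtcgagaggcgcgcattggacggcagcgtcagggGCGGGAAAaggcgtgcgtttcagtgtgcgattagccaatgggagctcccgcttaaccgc
GMNN: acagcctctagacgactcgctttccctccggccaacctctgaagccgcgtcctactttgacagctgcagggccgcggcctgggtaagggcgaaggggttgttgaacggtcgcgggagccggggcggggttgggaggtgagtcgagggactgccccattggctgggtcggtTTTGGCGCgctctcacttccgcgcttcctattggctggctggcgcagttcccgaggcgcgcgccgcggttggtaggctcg
CDT1: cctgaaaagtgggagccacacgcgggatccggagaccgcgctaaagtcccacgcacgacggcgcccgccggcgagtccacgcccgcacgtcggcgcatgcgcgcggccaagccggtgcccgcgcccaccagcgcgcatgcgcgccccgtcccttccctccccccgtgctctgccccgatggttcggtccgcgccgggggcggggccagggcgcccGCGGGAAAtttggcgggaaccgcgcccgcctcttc
ORC2: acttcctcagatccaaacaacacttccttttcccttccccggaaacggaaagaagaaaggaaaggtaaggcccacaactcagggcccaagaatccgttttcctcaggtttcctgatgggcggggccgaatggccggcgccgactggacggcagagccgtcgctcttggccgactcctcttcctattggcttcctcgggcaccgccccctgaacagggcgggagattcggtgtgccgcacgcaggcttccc
POLD2: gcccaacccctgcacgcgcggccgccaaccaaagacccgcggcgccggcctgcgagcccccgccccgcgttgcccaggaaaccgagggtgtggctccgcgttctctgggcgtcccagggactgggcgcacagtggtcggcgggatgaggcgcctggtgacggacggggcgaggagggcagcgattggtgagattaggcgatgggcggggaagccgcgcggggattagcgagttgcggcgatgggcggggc

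The E2F words searched were TTTCCCGC, TTTCGCGC, TTTGCCGC and TTTGGCGC on both strands. MCM6 held 4 such words in 2 overlapping pairs, with first bases 152, 148, 90 and 86 bases before the start, since the run TTTGGCGCGAAA reads as a word on each strand. MCM7 held 2, which began 187 and 9 bases before the start. PCNA held 1 at 59 bases, GMNN 1 at 80 and CDT1 1 at 35. Over the window from 250 bases before to 50 after the start, an E2F word was found in 23 of the 45 members with an entry in the RefSeq table (51.1%), in 6.46% of the 10388 tested genes with an entry and in 3.99% of all 27305 genes with one. Among matched members, 22 of the 39 called lower (56.4%) and 1 of the 6 not called (ORC3) held a word. The CCAAT box, the letters CCAAT on either strand, was found in 57.8% of matched members, 43.5% of the tested and 39.7% of all genes with an entry, and in 56.4% of the members called lower and 66.7% of the 6 not called. TTTGAA or TTCGAA on either strand, words of the cell-cycle homology region, were found in 4.44% of matched members. They were found in 15.6% of the tested and 19.5% of all genes with an entry. MCM4, MCM5, GINS4, RECQL4, POLD3, DNA2, RPA2 and RPA3 had no entry. These matches are letters in a window and no measure of binding.

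Most of the 53 members were lower in senescent cells. A gene was called where its limma adjusted p was under 0.1 and it changed by over 1.5-fold in a model with batch. Of the 53 members, 47 were called lower, beside 11.8% of the 13847 genes tested, and 0 were called higher, beside 11.6% of the genes tested. edgeR also called 47 lower and 0 higher, as did DESeq2. All 53 log2 fold changes were negative, so that 0 members were higher at an unadjusted p under 0.05 as well. The median log2 fold change of the members was -1.58, against 0.01 over all tested genes, and the median member kept 33.5% of its non-senescent level. The fall was over 4-fold for 12 members, 2- to 4-fold for 31 and under 2-fold for 10. The standard errors of the members ran from 0.08 to 0.37 on the log2 scale, with a median of 0.15. Members made up 2723 to 3228 ppm of the reads in non-senescent and 843 to 929.7 in senescent libraries, and these ranges did not overlap.

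For 45 members, every senescent library lay below every non-senescent library of its batch, in A and in B, as did 11.9% of the genes tested. The 6 members that were not called were ORC2, ORC3, ORC4, ORC5, POLD2 and RFC1. Of these, ORC2, ORC3 and RFC1 passed the adjusted p of 0.1 but changed by less than 1.5-fold. The called member closest to the limit was POLE, at -0.71 on the log2 scale, and the closest uncalled one was ORC3, at -0.45. These are bulk samples, in which fewer cells in S phase and less RNA per cell cannot be told apart.

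**Figure D1:**
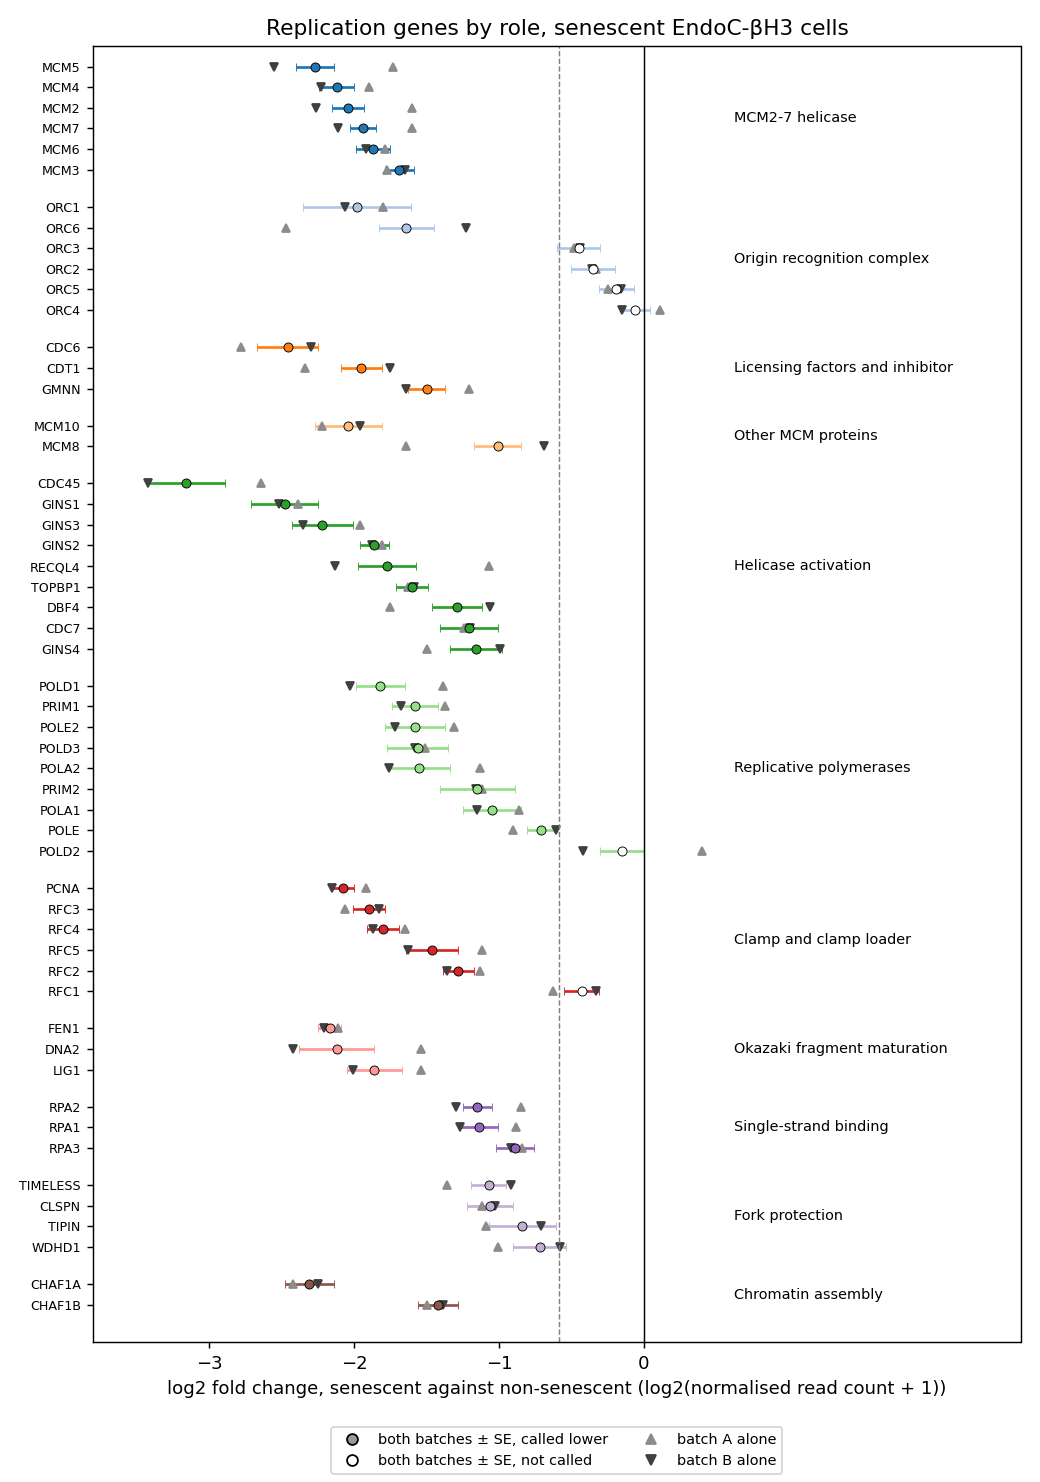
Log2 fold change of the 53 members (x axis, on log2(normalised read count + 1), senescent against non-senescent), grouped by role; circles with bars are the estimate over both batches ± SE, filled where called lower, triangles are each batch alone and the dashed line marks the 1.5-fold limit. Of the 6 open circles, 4 belong to the origin recognition complex, and CDC45 lies farthest left at -3.16.

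The 6 subunits of the MCM2-7 helicase fell together. All 6 were called lower, with a median log2 fold change of -1.99 and a range of -2.27 to -1.69, and they kept 20.7% to 30.9% of the non-senescent level. MCM5 (ENSG00000100297.16, chr22:35400134-35425431 in GRCh38) fell most. Its normalised read count was 509 at the lowest, 628 at the median and 717 at the highest in non-senescent libraries, and 98.4, 120.2 and 167 in senescent libraries. The groups did not overlap, and the fall was 2.27 ± 0.13 on the log2 scale (SE, n = 6 per group, limma adjusted p = 3.68e-10). MCM3 (ENSG00000112118.20, chr6:52264014-52284881) fell least of the 6, by 1.69 ± 0.10 (SE, limma adjusted p = 6.46e-10). MCM3 had 305, 322 and 1038 normalised read counts in non-senescent libraries and 78.8, 110.0 and 303 in senescent ones. Its level was set by batch as well: in A it went from 921 to 1038 down to 268 to 303, and in B from 305 to 328 down to 78.8 to 116, so that the groups separated within each batch while the senescent libraries of A reached almost to the non-senescent ones of B.

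MCM2 had 1099.9, 1984 and 2417 normalised read counts (lowest, median and highest) in non-senescent and 345, 414 and 482 in senescent libraries, and MCM7 had 4059, 6156 and 6849 against 1283, 1466 and 1589.8. Neither gene's groups overlapped. MCM2 fell by 2.04 ± 0.11 (SE, limma adjusted p = 1.93e-10) and MCM7, which lies on chr7:100092233-100101940 in GRCh38, by 1.94 ± 0.09 (SE, limma adjusted p = 2.57e-11). In both genes the senescent libraries of A and B lay close together, while the non-senescent libraries of A lay below those of B (1099.9 to 1167 against 1864 to 2417 for MCM2). MCM4 and MCM6 fell by 2.12 and 1.87.

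The origin recognition complex, which marks origins for loading, did not move as a unit. Of its 6 subunits, ORC1 and ORC6 were called lower and ORC2, ORC3, ORC4 and ORC5 were not called. ORC1, the subunit whose protein is known to be removed after G1 in human cells, had 11.9, 17.4 and 31.1 normalised read counts in non-senescent and 1.25, 4.13 and 7.35 in senescent libraries. No senescent library reached the lowest non-senescent one. Its log2 fold change was -1.98 ± 0.37 (SE, limma adjusted p = 0.000385), the largest error of any member, and rested on 9 to 39 reads per non-senescent and 1 to 8 per senescent library. ORC6 (ENSG00000091651.9, chr16:46689643-46698394) had 161, 217 and 309 normalised read counts against 50.7, 76.4 and 83.5, without overlap, and fell by 1.64 ± 0.19 (SE, limma adjusted p = 2.34e-06).

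ORC2 to ORC5 form the stable core of the complex, which ORC1 joins, and their groups overlapped in all 4 cases. ORC2 had 108, 173 and 199 normalised read counts in non-senescent and 102, 127 and 160.0 in senescent libraries. Its log2 fold change was -0.35 ± 0.15 (SE, limma adjusted p = 0.0704). ORC3 had 52.3, 80.7 and 131 against 44.1, 56.0 and 101, and its log2 fold change was -0.45 ± 0.15 (SE, limma adjusted p = 0.0215). Within batch A the ORC3 groups did not overlap, and within batch B the lowest non-senescent library lay among the senescent ones. ORC4 had 267, 302 and 364 normalised read counts against 210.5, 281 and 393, with a log2 fold change of -0.06 ± 0.10 (SE, limma adjusted p = 0.652, 95% interval -0.28 to 0.15). That interval leaves out a 1.5-fold change in either direction. ORC5 had 237, 308 and 438 against 197, 262 and 366, with a log2 fold change of -0.19 ± 0.12 (SE, limma adjusted p = 0.208, 95% interval -0.43 to 0.05).

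The loading factors CDC6 and CDT1 and the inhibitor geminin (GMNN) were all called lower. CDC6, the ATPase that joins the origin recognition complex to recruit the helicase, had 67.5, 84.5 and 173 normalised read counts in non-senescent and 10.5, 20.2 and 24.2 in senescent libraries. The 2 highest non-senescent libraries were those of batch A, and the groups did not overlap. CDC6 (ENSG00000094804.12, chr17:40287879-40304657) fell by 2.46 ± 0.21 on the log2 scale (SE, limma adjusted p = 5.47e-08) and kept 18.2% of its level. CDT1, which brings the MCM ring, had 175, 189 and 202 normalised read counts against 33.7, 49.4 and 67.5 and fell by 1.95 ± 0.14 (SE, limma adjusted p = 7.59e-09). GMNN had 291, 381 and 411 against 83.6, 125 and 179, with a log2 fold change of -1.50 ± 0.13 (SE, limma adjusted p = 7.39e-08). For CDT1 and GMNN too, every senescent library was below every non-senescent one.

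**Figure D2:**
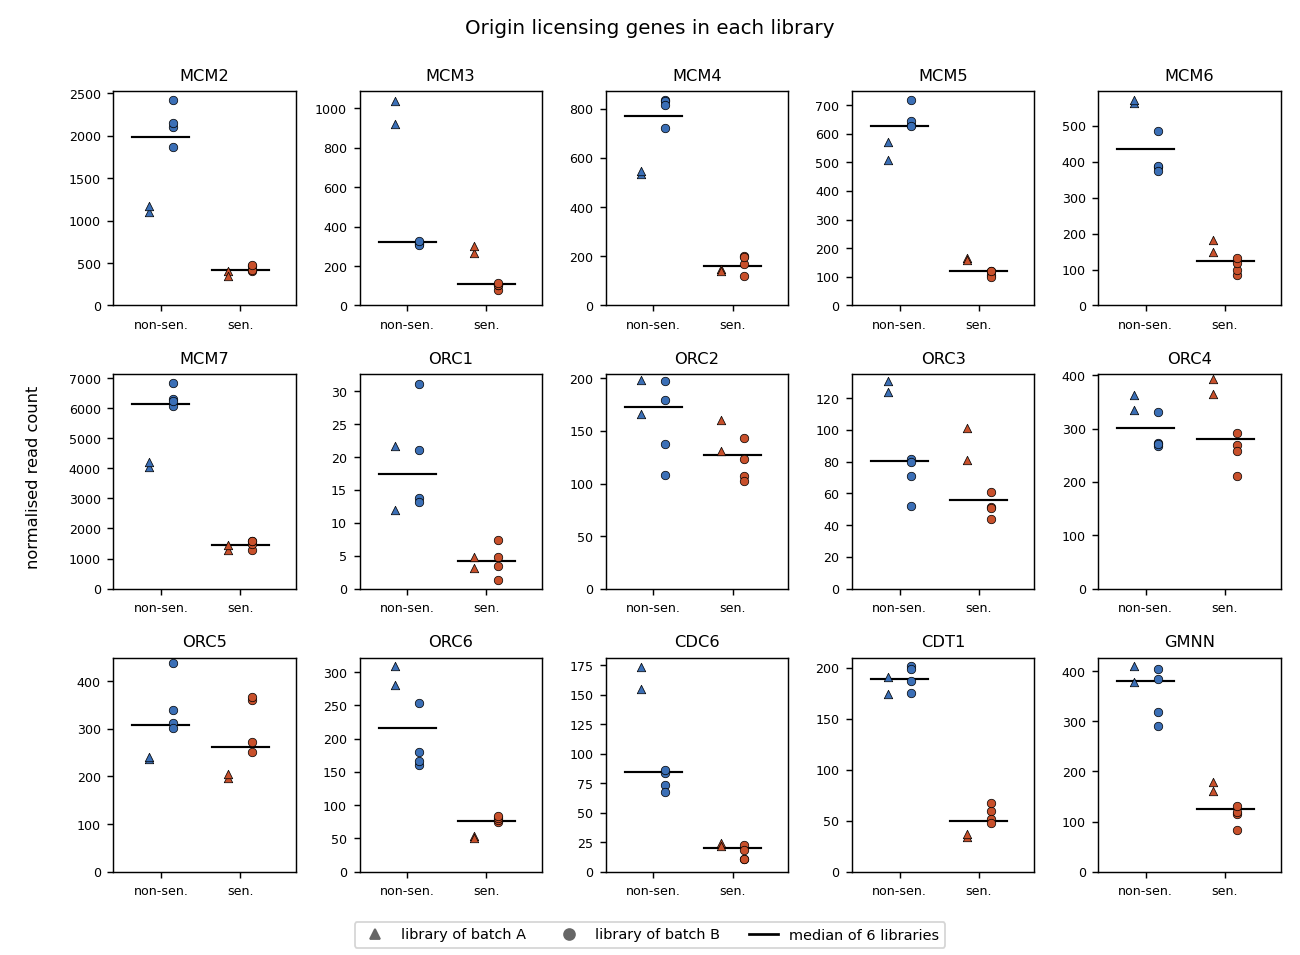
Normalised read count (y axis, from 0) of the MCM2-7, origin recognition and licensing genes in each of the 12 libraries; triangles are batch A, circles batch B, blue non-senescent, red senescent, and lines mark the median of 6. The senescent libraries lie below the non-senescent ones of their batch for all but ORC2, ORC3, ORC4 and ORC5.

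The balance of 3 pairs of genes was compared within each library, as the difference of 2 genes on the log2(normalised read count + 1) scale, with an exact two-sided permutation test within batches (420 arrangements, smallest possible p 0.00476) and p-values adjusted over the 3 pairs, of which one under 0.05 was taken to pass. The pairs were chosen with earlier results of these data known, so a p-value that passes is no independent support for a difference. ORC1, which was called lower, lost more than its partner ORC2, which was not called. ORC1 minus ORC2 was -3.69, -3.20 and -1.77 (lowest, median and highest) in non-senescent and -5.52, -4.89 and -3.69 in senescent libraries, a mean of -3.11 ± 0.70 against -4.74 ± 0.63 (SD, n = 6 each). The groups met at their edges, and the change was -1.63 (-1.47 in A, -1.70 in B; exact permutation p = 0.00476, the smallest possible, adjusted p = 0.0143). The few ORC1 reads make its size depend on the pseudocount: with 8 in place of 1 the change was -0.78 (exact permutation, adjusted p = 0.0286). In a test that kept same-named libraries as pairs, its adjusted p was 0.0938 (exact permutation by sign flips), from the smallest p that test allows (0.0313), so it says nothing about stability.

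CDT1 minus GMNN, the promoter of loading against its inhibitor, was -1.11, -1.03 and -0.66 in non-senescent and -2.25, -1.32 and -0.30 in senescent libraries. The 2 senescent libraries of batch A were the lowest and 1 of batch B, replicate B3, was the highest of all 12. The mean difference was -0.45, with -1.13 in A and -0.11 in B, and did not pass (exact permutation p = 0.114, adjusted p = 0.171). Without senescent replicate B3 it was -0.67 (exact permutation, adjusted p = 0.0214). It is a plain mean over libraries, so leaving that one out also gives batch A more weight in the senescent group. The outcome therefore depends on which libraries are kept. CDC7 minus DBF4, the kinase against its activating subunit, was -1.21, -0.76 and -0.08 against -1.60, -0.76 and 0.50, and its groups overlapped almost wholly. The mean difference was 0.07, with 0.50 in A and -0.14 in B (exact permutation p = 0.705, adjusted p = 0.705).

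**Figure D3:**
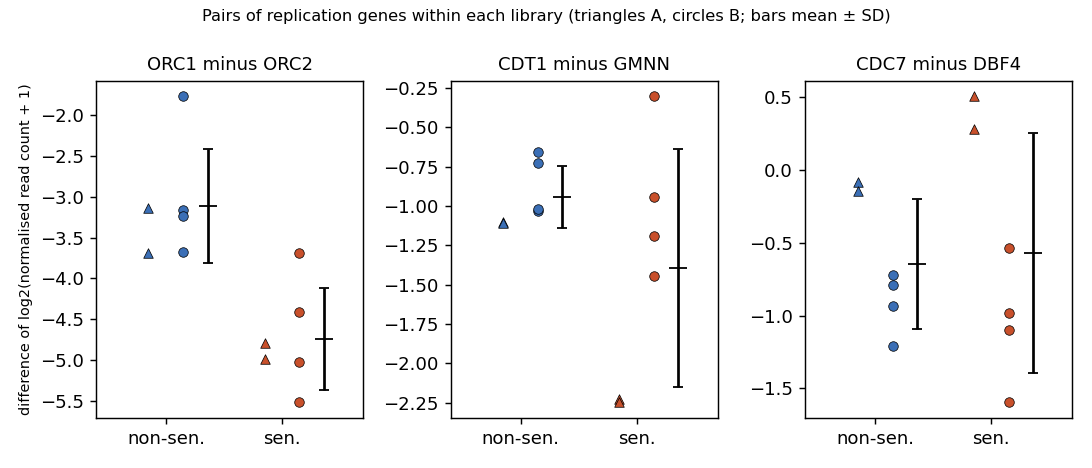
Difference of 2 genes in each library (y axis, log2(normalised read count + 1) of the first minus the second); triangles are batch A, circles batch B, and black bars give the mean ± SD of 6 libraries. ORC1 minus ORC2 shifts down in both batches, while CDT1 minus GMNN shifts chiefly in batch A and CDC7 minus DBF4 moves in opposite directions in A and B.

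MCM10 and MCM8, which carry the MCM name but lie outside the MCM2-7 ring, were both called lower. MCM10, a factor for helicase activation, had 27.8, 41.5 and 58.7 normalised read counts in non-senescent and 7.27, 9.11 and 11.2 in senescent libraries. It fell by 2.04 ± 0.23 on the log2 scale (SE, limma adjusted p = 2.07e-06) without overlap. MCM8, which acts with MCM9 in recombination, had 276, 307 and 429 against 82.7, 194 and 271. Its highest senescent library came close to its lowest non-senescent one, and it fell by 1.01 ± 0.16 (SE, limma adjusted p = 6.88e-05).

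All 9 genes for helicase activation were called lower, with a median log2 fold change of -1.77. CDC45, which binds the MCM ring with GINS to form the active helicase, fell most of the 53 members. Its normalised read count was 38.5, 58.7 and 81.1 in non-senescent and 2.42, 5.96 and 11.7 in senescent libraries, and the groups were far apart. It fell by 3.16 ± 0.27 (SE, limma adjusted p = 8.06e-08), or 8.95-fold, on 28 to 120 reads per non-senescent and 2 to 26 per senescent library. With so few reads the size depends on the pseudocount: the log2 fold change was -3.39 with 0.1 in place of 1 and -2.23 with 8. The GINS subunits GINS1, GINS3 and GINS2 fell by 2.48, 2.22 and 1.86. GINS4 fell least of these 9: it had 78.3, 99.7 and 108 normalised read counts against 29.6, 38.4 and 61.8, without overlap, and fell by 1.16 ± 0.18 (SE, limma adjusted p = 8.47e-05).

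CDC7 had 63.4, 81.5 and 96.4 normalised read counts in non-senescent and 22.4, 35.0 and 54.6 in senescent libraries, and fell by 1.21 ± 0.20 (SE, limma adjusted p = 0.000129). DBF4 had 89.5, 118 and 183 against 26.6, 62.7 and 79.8, and fell by 1.29 ± 0.17 (SE, limma adjusted p = 1.13e-05). Neither pair of groups overlapped, and the senescent libraries of batch A were the lowest for DBF4. TOPBP1, a scaffold in helicase activation and ATR signalling, fell by 1.60 and RECQL4, a helicase that acts at initiation, by 1.77.

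Of the 9 polymerase and primase genes, 8 were called lower and POLD2 was not. POLD1, the catalytic subunit of polymerase delta, fell most of them. It had 81.2, 108 and 113 normalised read counts in non-senescent and 19.9, 26.5 and 43.5 in senescent libraries, and fell by 1.82 ± 0.17 (SE, limma adjusted p = 1.59e-07) with no overlap. An overlapping gene on the same strand (ENSG00000142539) has exons in the last 1000 bases of POLD1, so 3′ reads may be shared. POLD2, an accessory subunit of the same polymerase (ENSG00000106628.13, chr7:44114631-44124358), had 121, 161 and 186 normalised read counts against 104, 139 and 179.6. It ran in opposite directions in the batches. In A the senescent libraries (149.8 to 179.6) were above the non-senescent ones (121 to 127), and in B they were below them (104 to 156 against 160.3 to 186). Its log2 fold change over both was -0.15 ± 0.15 (SE, limma adjusted p = 0.458, 95% interval -0.46 to 0.16).

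The other polymerase members fell by 0.71 to 1.58. PRIM1, the catalytic primase, and POLE2, an accessory subunit of polymerase epsilon, fell by 1.58 each. The delta subunit POLD3 fell by 1.56, and POLA2, POLA1 and the second primase subunit PRIM2 fell by 1.55, 1.05 and 1.15. POLE, the catalytic subunit of polymerase epsilon, fell by 0.71 ± 0.10 (SE, limma adjusted p = 2.93e-05), the smallest fall of any called member, from 234 to 312 normalised read counts down to 147 to 184.

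Among the clamp and its loader, PCNA and 4 of the 5 RFC subunits were called lower. PCNA, the ring that tethers polymerases to DNA (ENSG00000132646.11, chr20:5114953-5126626), had 621, 705 and 1039.5 normalised read counts in non-senescent and 139.5, 155 and 266 in senescent libraries. The groups were separated by a wide gap, and PCNA fell by 2.08 ± 0.08 (SE, limma adjusted p = 4.45e-12). Its fall was 1.92 in A and 2.15 in B. The small loader subunits RFC3, RFC4, RFC5 and RFC2 fell by 1.90, 1.80, 1.46 and 1.28. RFC3 differed in level between batches, with 1258 to 1423 normalised read counts in non-senescent libraries of A and 237 to 305 in those of B, against 314 to 328 and 60.9 to 89.7 in senescent ones. RFC1, the large subunit that sets the canonical loader apart, had 375, 463 and 641 against 234, 364 and 539, and its groups overlapped within batch B. Its log2 fold change was -0.43 ± 0.12 (SE, limma adjusted p = 0.00834), and only in batch A, at -0.63, was it over the fold limit.

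The genes for joining Okazaki fragments, FEN1, LIG1 and DNA2, were called lower as well. FEN1, the flap nuclease, had the smallest adjusted p of the 53. It had 1098, 1279.8 and 1537 normalised read counts in non-senescent and 231, 279.9 and 356 in senescent libraries, far apart, and fell by 2.17 ± 0.08 (SE, limma adjusted p = 3.67e-12). LIG1, the replicative ligase, had 78.5, 159.8 and 224 against 23.1, 35.0 and 78.1 and fell by 1.86 ± 0.19 (SE, limma adjusted p = 6.82e-07). Its senescent libraries of batch A were just below its lowest non-senescent library, which was of batch B. DNA2, a nuclease and helicase for long flaps, fell by 2.12.

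The trimer that coats single-stranded DNA fell less. RPA2 had 293, 416 and 494 normalised read counts in non-senescent and 161, 175 and 209 in senescent libraries, without overlap, and fell by 1.15 ± 0.10 (SE, limma adjusted p = 1.4e-07). RPA1, its large subunit, fell by 1.14. RPA3, the smallest subunit, had 149, 203 and 267 against 74.7, 108 and 158. Here the highest senescent library, of batch A, passed the lowest non-senescent one, of batch B, while within each batch the groups were apart, and RPA3 fell by 0.89 ± 0.13 (SE, limma adjusted p = 4.67e-05). The 3 members kept 45.1% to 53.8% of their level.

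The fork protection genes kept 47.7% to 60.6% of their level, and all 4 were called lower. TIMELESS, which pairs with TIPIN to steady the fork, had 284, 294 and 315 normalised read counts in non-senescent and 101, 136 and 191 in senescent libraries and fell by 1.07 ± 0.12 (SE, limma adjusted p = 1.77e-06). The groups did not overlap. WDHD1, the adaptor that ties polymerase alpha to the helicase, had 64.6, 111 and 122 against 44.8, 62.8 and 82.4. Its lowest non-senescent library lay among the senescent ones of batch B, and its fall was 0.72 ± 0.18 (SE, limma adjusted p = 0.00369). TIPIN fell by 0.84, also with overlap in batch B, and both WDHD1 and TIPIN lost the call in batch B alone. CLSPN, which links the fork to the checkpoint kinase, fell by 1.06 within a large difference between batches: its non-senescent libraries held 38.9 to 59.6 normalised read counts in A and 184 to 387 in B, and its senescent ones 20.5 to 22.9 and 116 to 136. Without the batch term CLSPN was not called.

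Both large subunits of chromatin assembly factor 1, which lays histones on new DNA, were called lower. CHAF1A had 89.5, 139 and 179 normalised read counts in non-senescent and 16.8, 28.3 and 33.7 in senescent libraries, without overlap, and fell by 2.31 ± 0.17 (SE, limma adjusted p = 1.06e-08). CHAF1B had 76.1, 123 and 179.7 against 26.0, 51.4 and 54.8 and fell by 1.42 ± 0.14 (SE, limma adjusted p = 4.84e-07). In CHAF1B, too, the highest senescent library was below the lowest non-senescent one.

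**Figure D4:**
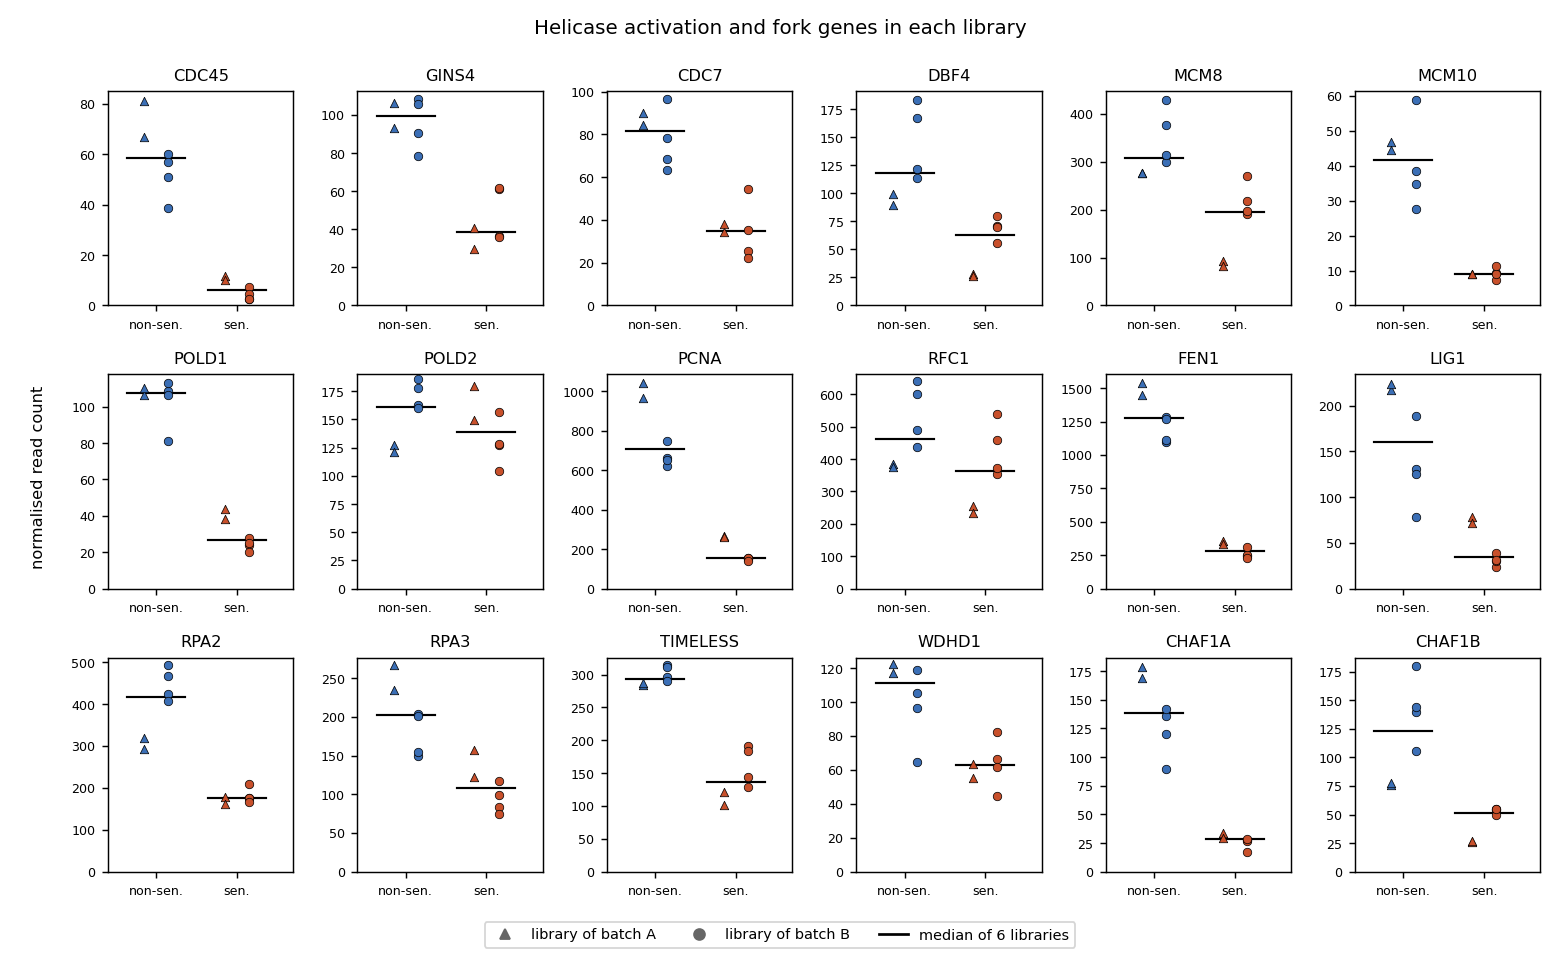
Normalised read count (y axis, from 0) of 18 helicase activation, polymerase, clamp, Okazaki fragment, single-strand binding, fork protection and chromatin assembly genes in each of the 12 libraries; triangles are batch A, circles batch B, blue non-senescent, red senescent, and lines mark the median of 6. POLD2 is the panel in which the senescent libraries lie above the non-senescent ones in batch A and below them in batch B.

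The size of the response differed between batches for a few members. The log2 fold change was negative in B for all 53 and in A for 51, with ORC4 (0.11) and POLD2 (0.40) the exceptions, and the median was -1.50 in A and -1.64 in B. Over the 53 genes, which share libraries and are not independent, Pearson's r between the batches was 0.77 and Spearman's rho 0.75. The batch by group interaction passed an adjusted p of 0.1 for 6 members, beside 4.21% of the genes tested. MCM2, MCM5 and MCM7 fell further in B (2.26, 2.55 and 2.11) than in A (1.60, 1.73 and 1.60), with limma interaction adjusted p = 0.043 for MCM2, 0.0217 for MCM5 and 0.0569 for MCM7. ORC6 and MCM8 fell further in A (2.47 and 1.64) than in B (1.23 and 0.69), with limma interaction adjusted p = 0.0181 and 0.0505. POLD2 was the sixth (limma interaction adjusted p = 0.0867).

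Those 6 calls rest on the 2 libraries a group has in batch A. In fits chosen after seeing the data, the number was 0 without non-senescent replicate A2, 1 without senescent replicate A1 and 2 without non-senescent replicate A1 or senescent replicate A2, in which the lone library left in its arm is assumed to vary like the others. The number was 5 to 7 when any 1 library of batch B was left out. MCM2, MCM5, MCM7, ORC6 and MCM8 passed in each of those batch B fits. POLD2 passed only without non-senescent replicate B4 or senescent replicate B1, so its call depended on libraries of batch B as well.

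**Figure D5:**
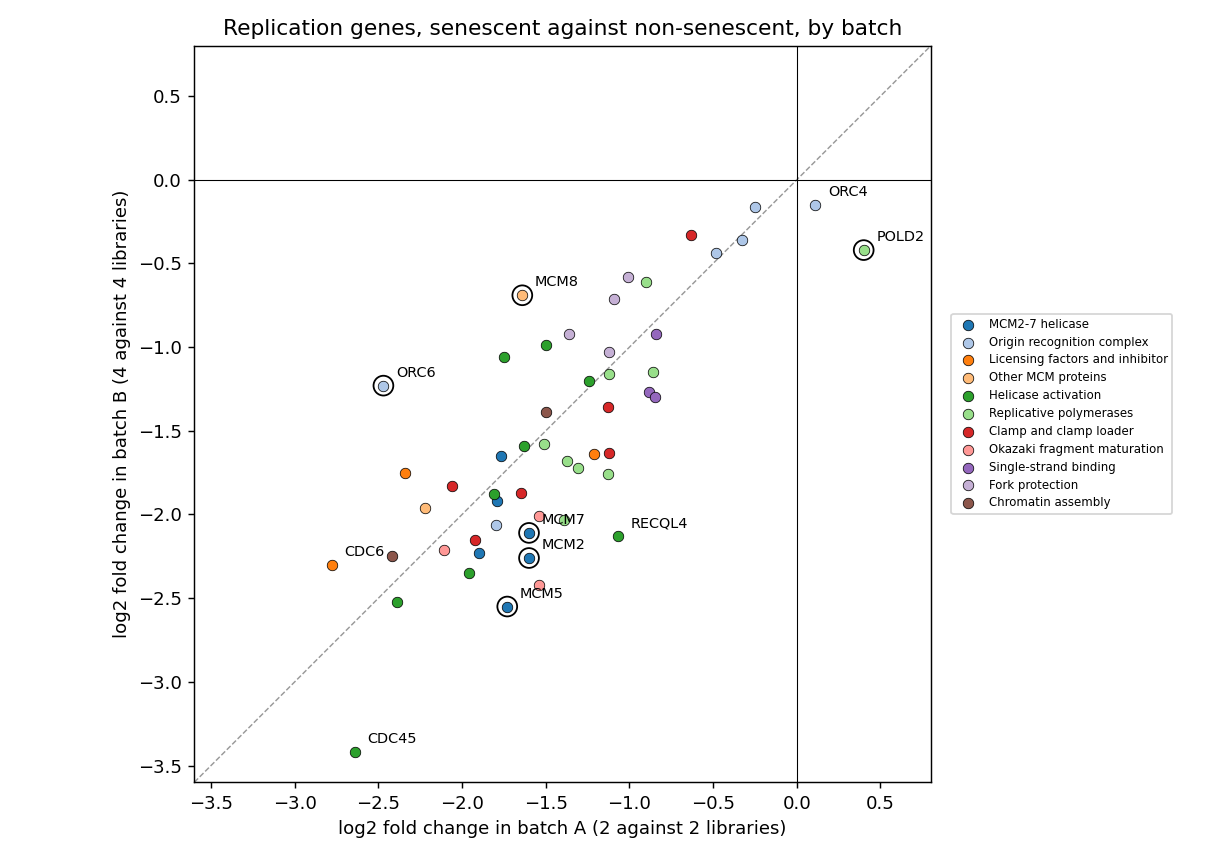
Log2 fold change of each member in batch A (x axis, 2 against 2 libraries) and in batch B (y axis, 4 against 4), on log2(normalised read count + 1), coloured by role; rings mark the 6 members with an interaction adjusted p under 0.1 and the dashed line marks equal values. MCM2, MCM5 and MCM7 lie below the line, ORC6 and MCM8 above it, and POLD2 is positive in A.

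A further 53 replication genes outside these members were followed, in 3 lists, of which 49 passed the filter (GMNC, MCIDAS, RTEL1 and RPA4 did not). Of the 49, 26 were called lower and 2 higher (53.1% and 4.08%, beside 11.8% and 11.6% of all genes tested), and their median log2 fold change was -0.80. In the list of other initiation and licensing genes 9 of 11 were lower, in that of other polymerase and clamp genes 9 of 12, and in that of other fork and termination genes 8 of 26. The 3 largest falls were those of DSCC1, a subunit of an alternative clamp loader, ASF1B, a histone chaperone, and TOP2A, the topoisomerase that untangles sister chromatids. DSCC1 had 65.8, 78.7 and 92.2 normalised read counts in non-senescent and 2.29, 9.96 and 18.1 in senescent libraries and fell by 3.13 ± 0.31 (SE, limma adjusted p = 4.76e-07). ASF1B had 487, 3793 and 4249 against 61.9, 512 and 732, with all values of batch A below those of batch B in each group, and fell by 2.73 ± 0.11 (SE, limma adjusted p = 5.37e-12). TOP2A had 847, 903 and 1542 against 147, 157 and 211 and fell by 2.64 ± 0.14 (SE, limma adjusted p = 1.51e-10).

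The 2 genes called higher, a smaller share than over all genes tested, were CTC1 and TEN1. They encode subunits of the CST complex, which helps polymerase alpha fill in telomere ends. CTC1 had 30.3, 48.2 and 84.8 normalised read counts in non-senescent and 79.0, 93.6 and 108 in senescent libraries, with overlap, and rose by 0.81 ± 0.21 (SE, limma adjusted p = 0.00641). TEN1 had 2.92, 7.89 and 15.1 against 9.06, 15.9 and 24.1, on 2 to 19 reads per non-senescent library, and its log2 fold change of 1.00 ± 0.37 (SE, limma adjusted p = 0.0417) was all from batch B (1.5, against 0.00 in A). STN1, the other subunit, was not called (0.42).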

How the data were processed

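RNA of 12 EndoC-βH3 libraries was profiled by CEL-seq2, as the study's methods name it. Per the study's methods and the labels, the authors trimmed reads with Cutadapt, counted them with Salmon 0.13.1 on GRCh38 and normalised with DESeq2. The annotation, the strand setting and whether molecular identifiers were used are not given in the sources used here, so intervals cover only the spread between libraries. The deposited values are a signal, the reads per gene divided by 1 size factor per library, and are called normalised read counts. All 196021 non-zero values (100%, tolerance 0.01) were whole multiples of 1 read, so reads were recovered for edgeR 4.0.16 and DESeq2 1.42.0. The fold changes and p-values deposited by the authors were not used. Unmapped value columns numbered 0.

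Groups were compared with limma 3.58.1 (R 4.3.3, intensity trend) on log2(normalised read count + 1) with batch and group, on 13847 genes with a mean of at least 5 and Benjamini-Hochberg adjustment over all of them. The + 1 understates changes of low genes. Salmon may split reads between similar or overlapping genes: 10 members have another gene's exons on the opposite strand in their last 1000 bases and 1 on the same strand. Levels of different genes were not compared. In simulated data with 200 of 13847 genes changed, this fit called 68.4% of the 2-fold and 98% of the 4-fold changes, 96.5% of its calls were true, and it made 0 calls without changes. The simulation used known scaling and no batch by group effect. It also changed fewer genes than were called here (1632 lower and 1605 higher), so its rates need not hold for the real data. Library pairs of 1 group and batch differed by a chi-square per degree of freedom of 4.28 to 8.05, so none was a duplicate.

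The members, lists, pairs and tests were chosen with earlier results of these data known. Named with their values were, in each role, the members with the largest and smallest change, the pairs, PCNA, members not called lower or with an interaction, and, of the other genes, the 3 largest falls and any rise. Positions came from GENCODE v44 (GRCh38). Alternatives varied the pseudocount, filter, scaling, batch term, replicate block, batches, limits, tool and single libraries.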

Additional observations from a re-analysis of the deposited data

Results flagged for a closer look

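Of 106 groups of 6 libraries (53 members, 2 groups each), 3 had a library far from the other 5. Chance flags about 1 in 20 groups where all 6 values come from 1 population. Each group here joined libraries of both batches, whose levels differed for some members, so that rate need not hold. TOPBP1 was highest in senescent replicate A1, at 229 normalised read counts, against 130.5 to 165 in the other senescent libraries. POLD1 was lowest in non-senescent replicate B2, at 81.2, against 106 to 113 in the others. RPA2 was highest in senescent replicate B3, at 209, against 161 to 179. In each case the library stayed on its own group's side of the other group.

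The response differed between batches, by the interaction test, for 6 members. Taken as the log2 fold change in B less that in A, the difference was -0.66 for MCM2, -0.82 for MCM5, -0.51 for MCM7, 1.24 for ORC6, 0.95 for MCM8 and -0.82 for POLD2. Batches A and B also differed in depth and in the share of mitochondrial reads (19.9% to 24.8% in A and 15.6% to 17.9% in B). The part of these in the differences was not tested.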

How the results depend on the processing

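The count of 47 members called lower was 45 to 48 in every alternative run except that without the fold change limit, where it was 50, and was 47 in each of the 12 fits without 1 library. The count of members called higher was 0 in all of them. ORC2, ORC3, ORC4, ORC5 and POLD2 were not called lower in any of them that kept the fold change limit. Scaling to the same total moved the median log2 fold change of all genes from 0.012 to -0.091 and the calls over all genes from 1605 higher and 1632 lower to 1226 and 2090, with 47 members lower.

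The replicate block, which fits same-named libraries as pairs, gave 47 members lower and 25 other replication genes lower. Same-named libraries did not deviate together (correlations of -0.051 to 0.016). With 2 or 4 libraries per group and batch, this cannot exclude that they were handled together. Among the pairs of genes, the block left ORC1 minus ORC2 at -1.63 with an adjusted p of 0.0938 (exact sign flips), over the limit of 0.05, and moved no other pair across it. ORC1 minus ORC2 was -1.47 in batch A alone (adjusted p = 0.333, exact permutation) and -1.70 in B alone (adjusted p = 0.0857, exact permutation). In these 3 tests its p before adjustment was the smallest possible (0.0313, 0.333 and 0.0286), so missing the limit says nothing about its stability. It ran from -1.84 to -1.36 without 1 library. CDC7 minus DBF4 turned to -0.14 in batch B alone and ran from -0.14 to 0.28 without 1 library, with -0.04 without non-senescent replicate B2, -0.10 without senescent replicate A1 and -0.14 without senescent replicate A2. CDT1 minus GMNN ran from -0.67 to -0.28 without 1 library. The differences without 1 library were plain means over the libraries left, so the mix of batches in 1 group changed as well. A turn in sign or a change in size there is thus no measure of that library alone. The causes were not tested.

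Other replication genes called higher numbered 1 with a filter at a mean of 20 (which leaves out TEN1), 1 without the batch term and 1 in batch B alone, and 2 to 3 without 1 library. Members whose response differed between batches ran from 0 to 7 without 1 library, and from 5 to 7 under the other alternatives. Single members that turned were ORC4 in batch A alone (0.11) and without senescent replicate B4 (0.00), and POLD2 in batch A alone (0.40).

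Depth limits the genes with few reads, such as ORC1 and CDC45, which had 1 to 26 reads per senescent library.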

Other observations

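Some members share a start region with a neighbouring gene that runs the other way, and those neighbours were compared as a description, by a rule chosen after the data were seen (a protein-coding gene on the opposite strand whose start lies within 1000 bases, in GENCODE v44). There were 17 such pairs, and 16 of the neighbours were tested. Of these, 4 were called lower and 0 higher (25.0% and 0%, beside 11.8% and 11.6% of all genes tested), with a median log2 fold change of -0.30, while the 16 members beside them had a median of -1.82. TMEM258 starts 109 bases from FEN1 and had 685, 837 and 1338 normalised read counts (lowest, median and highest) in non-senescent and 482, 686 and 849.7 in senescent libraries, a log2 fold change of -0.44 ± 0.11 (SE, limma adjusted p = 0.00346) against -2.17 for FEN1. TPRA1, 143 bases from MCM2, changed by 0.17 ± 0.18 (SE, limma adjusted p = 0.479) against -2.04. CDS2, 253 bases from PCNA, was at 0.44 ± 0.10 (SE, limma adjusted p = 0.00131), under the fold limit, against -2.08. The neighbours called lower were UFD1 beside CDC45 (-0.73), PRKDC beside MCM4 (-0.65), LIPT2 beside POLD3 (-0.72) and PXMP2 beside POLE (-1.22). For PXMP2 the value was beyond that of POLE (-0.71), the one pair of the 16 of which this holds. The difference within pairs was not tested.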
